A study of Mus musculus with 4 samples.

Results

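Chromatin immunoprecipitation and sequencing (ChIP-seq) of the transcription factor ATF4 in mouse regulatory T cells gave 317 promoter peaks that lay 1 to 3 kb away from the start of their assigned gene. They were chosen from the authors' annotation as all peaks of the classes Promoter (1-2kb) and Promoter (2-3kb), whatever the transcript. They made up 317 of 4544 peaks, or 6.98% (95% exact interval 6.25 to 7.76). There were 190 peaks at 1 to 2 kb and 127 at 2 to 3 kb, assigned to 282 of the 3634 genes in the list. The samples were 2 ATF4 immunoprecipitates and 2 inputs, all from enriched CD4+CD25+ cells, and the labels used here give no strain, genotype, treatment or age. Each replicate held 24000000 cells. Fixation was in 1% formaldehyde and lasted 10 min, and a 1% portion of the sonicated chromatin was set aside as input. Spleen is the labelled tissue, and the design text also names lymph nodes. The deposited result is 1 peak list on build mm10 without values per sample. The depth of the samples is therefore unknown, no value has a replicate error, and no test between samples was possible. Intervals are at 95% and cover counting error over the peaks of this list only.

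ATF4 belongs to the basic leucine zipper factors, binds DNA as a dimer, often with a C/EBP partner, and is best known for switching on amino acid synthesis and transport genes in the integrated stress response. Regulatory T cells hold immune responses in check, and CD25, a chain of an interleukin receptor, is used to enrich them. Regulatory DNA can lie over the start of a gene, upstream of it, or downstream of it inside the gene, and many genes have several starts. Of 5 marker genes of regulatory T cells, 4 had a listed peak (Foxp3, Il2ra, Ctla4 and Ikzf2), as did 1 of 4 general T cell markers (Cd28), 1 of 3 B cell markers, 1 of 3 CD8 T and NK cell markers and 1 of 4 myeloid markers. Binding does not measure expression, so these counts do not give the make-up of the cells.

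The strongest downstream peak was assigned to Mir21a, and 13 of the 317 peaks were assigned to 10 microRNA genes. MicroRNAs are short RNAs that silence messenger RNAs, which they recognise mainly through the seed, bases 2 to 8. The mature sequences of the 3 microRNA genes with the strongest peaks, and of Mir17, which had 1 of the 2 upstream microRNA peaks, are shown 5′ to 3′ from RefSeq (GRCm38.p6) with the seed in capitals.
mmu-miR-21a-5p: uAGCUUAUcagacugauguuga
mmu-miR-26b-5p: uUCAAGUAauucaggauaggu
mmu-miR-6935-3p: uGUUCUUUgucuuuccacag
mmu-miR-17-5p: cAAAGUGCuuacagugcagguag
These 4 sequences have different seeds. In the RefSeq table the seed of miR-17-5p was shared by 7 mature microRNAs, itself included, and the seeds of the other 3 by 2 each.

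The DNA under the 1 to 3 kb peaks was not analysed here. The sequences at hand cover 250 bases before to 50 after each gene's start, and none of these windows held such a peak. What could be read was the start itself: the start from which the distance was measured had a window in 137 cases. The C/EBP-ATF response element was searched as TGATGNAAN, the cAMP response element as TGACGTCA and the AP-1 site as TGANTCA, on both strands, and a base could count for more than 1 motif. The C/EBP-ATF letters stood in 8 of 137 windows, or 5.84% (2.55 to 11.2), against 3.95% of all 32851 windows. The cAMP letters stood in 0.730% (0.0185 to 4.00), against 1.79% of all windows. The AP-1 letters stood in 5.11% (2.08 to 10.2), against 7.81% of all windows. Of the 137 windows 70 also held a listed peak, and the C/EBP-ATF letters were in 2 of these, or 2.86% (0.348 to 9.94), against 3.23% of all 2294 windows with a listed peak. In the other 67 they were in 6, or 8.96% (3.36 to 18.5). The 2 windows with both were those of Got1 and Srgn, chosen for the match. Their sequences are shown 5′ to 3′ on the strand of the gene, from RefSeq (GRCm38.p6). The capitals mark the match, which reads as the reverse complement of the motif.
Got1: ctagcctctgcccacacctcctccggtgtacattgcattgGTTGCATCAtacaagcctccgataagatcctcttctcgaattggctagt
Srgn: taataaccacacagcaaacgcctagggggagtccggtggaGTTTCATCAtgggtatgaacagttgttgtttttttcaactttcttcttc
The Got1 stretch is chr19:43524660-43524748 on the minus strand and the Srgn stretch chr10:62507876-62507964 on the minus strand. A match of letters is a description and not a measured binding site.

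Got1 encodes an aspartate aminotransferase. The peak over its start had a fold enrichment of 7.13, the ratio of signal to local background at the summit, with the summit 10 bp from the match. Its peak 1213 bp downstream had 3.52. Srgn encodes serglycin, a proteoglycan of secretory granules. The peak over the Srgn stretch had 8.68 with its summit 199 bp from the match, but was assigned to Gm51804, while the peak 1055 bp downstream of the Srgn start had 2.88. At both genes the peak over the start was the stronger.

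Fold enrichment and −log10 q, the measure of significance, are the authors' deposited values throughout. Over the 317 peaks fold enrichment ran from 1.17 to 9.33 with a median of 3.18 (3.10 to 3.35), against a median of 3.30 (3.26 to 3.34) over the other 4227 peaks. The median −log10 q was 4.58 (3.82 to 5.22), against 5.73 (5.57 to 5.89) over the other peaks. The 455 strongest peaks, 10.0% of the list, had a fold enrichment of at least 5.34. Of the 1 to 3 kb peaks 26 reached this level, or 8.20% (5.43 to 11.8), an interval that includes the share of the whole list. Ranked by −log10 q the share was 5.68% (3.40 to 8.83), below the 10.0% of the list. By this ranking it was 4.32% in the Intron class, 14.9% in the Distal Intergenic class and 11.1% within 1 kb of a start. A −log10 q under 3 was found in 34.1% of the 1 to 3 kb peaks and in 22.3% of the others. Among the others it was found in 37.6% of Intron, 33.4% of Distal Intergenic and 17.3% of peaks within 1 kb.

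Against peaks within 1 kb of the start, the median fold enrichment differed by −0.0138 (−0.110 to 0.168), an interval that includes 0. The median −log10 q differed by −2.15 (−2.92 to −1.43). Against Distal Intergenic peaks the fold enrichment differed by −0.257 (−0.398 to −0.0388), and against Intron peaks by −0.484 (−0.634 to −0.279). The order was not the same by −log10 q, which differed by 0.440 (−0.369 to 1.21) against Distal Intergenic and by 0.898 (0.00527 to 1.58) against Intron peaks. The peaks within 1 kb were themselves mixed in fold enrichment, with a median of 3.33 (3.28 to 3.39) over the start, 2.99 (2.90 to 3.08) upstream of it and 2.96 (2.89 to 3.03) downstream.

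At the 1 kb bound, the nearest peaks on the side of the start were those of Fermt3 at 2.05, Gm30211 at 4.74 and Gstp3 at 2.98. The nearest beyond it were those of Erdr1 at 2.57, Grk2 at 2.64 and Kpna4 at 2.66. At the 3 kb bound, Gm40467 had 3.16, Gm46618 2.61 and Arhgap23 3.88 on the inside, and Bola2 had 3.07, Rxfp4 4.11 and Ripor2 2.32 on the outside. The 3 peaks just beyond 1 kb were all under the median of the 317.

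Downstream peaks outnumbered upstream ones. There were 82 peaks upstream, or 25.9% (21.1 to 31.1), and 235 downstream. The upstream share was 20.5% (15.0 to 27.0) at 1 to 2 kb and 33.9% (25.7 to 42.8) at 2 to 3 kb. Among peaks within 1 kb that did not overlap the start it was 36.0% (33.1 to 39.0). Upstream counts lay between 7 and 14 in every 250 bp from 1 to 3 kb. Downstream counts were larger, at 54, 29, 37, 31, 28, 21, 18 and 17 in order of distance, a decline that was not steady. These distances are to the nearest edge of a peak, and the summit of 20 of the 317 peaks lay beyond 3 kb. Among these were peaks of Dhx40, Fbxl18, Slc51a, Ctla4, Id2, Pim1, Mir26b and Mir6935, which are named below.

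**Figure D1:**
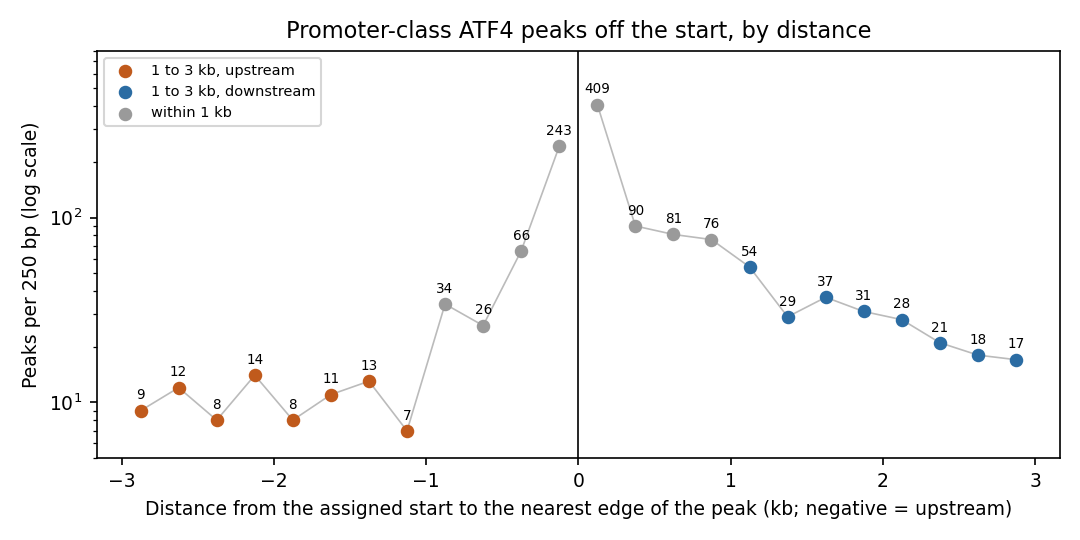
Number of promoter-class peaks in each 250 bp of distance from the assigned start, upstream and downstream, leaving out the 2033 peaks that overlap the start (x axis in kb, negative upstream; y axis logarithmic). Between 1 and 3 kb the upstream counts stay between 7 and 14, while the downstream counts lie between 54 nearest the start and 17 farthest from it.

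Upstream and downstream peaks lay in different surroundings. Of the upstream peaks 8 of 82 lay inside the span of their own gene, all 8 measured from a start inside that gene. Of the downstream peaks 199 of 235 lay inside their own gene, or 84.7% (79.4 to 89.0). The other 36 lay past its end, and the assigned transcript of all 36 spanned under 3 kb. Another gene was overlapped by 30 of 82 upstream peaks, or 36.6% (26.2 to 48.0), and by 31 of 235 downstream peaks, or 13.2% (9.14 to 18.2). No gene at all was overlapped by 45 of 82 upstream peaks, or 54.9% (43.5 to 65.9), and by 23 of 235 downstream peaks, or 9.79% (6.31 to 14.3). Of 309 peaks that could be placed against the RefSeq starts, 0 lay within 1 kb of the start of another gene. The upper bound was 0.971% by a floor of 3 counts, or 1.19% by the exact interval. The nearest such start was 1102 bp away. Each peak was assigned to its nearest start, so the 0 was set by construction and the bounds estimate nothing. The count was likewise 0 of 481 Distal Intergenic peaks and 0 of 453 Intron peaks.

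Upstream peaks had a median fold enrichment of 3.51 (3.14 to 3.79) and downstream peaks one of 3.15 (3.04 to 3.30). The difference of 0.360 had an interval of −0.0423 to 0.659, which includes 0. The groups overlapped over most of their range, from 1.95 to 9.33 upstream and from 1.17 to 8.34 downstream. At the upper end the shares stood apart: 16 of 82 upstream peaks were among the 455 strongest, or 19.5% (11.6 to 29.7), and 10 of 235 downstream peaks, or 4.26% (2.06 to 7.69). These intervals do not overlap, and they lie on either side of the 10.0% of the whole list. Ranked by −log10 q, the intervals overlapped, with 10.98% (5.14 to 19.8) upstream and 3.83% (1.77 to 7.15) downstream. They also overlapped by fold enrichment outside the own gene, with 18.9% (10.7 to 29.7) upstream and 11.1% (3.11 to 26.1) downstream. By distance, the upstream share was 12.8% (4.30 to 27.4) at 1 to 2 kb and 25.6% (13.5 to 41.2) at 2 to 3 kb. Upstream peaks within 1 kb had a share of 5.15% (3.13 to 7.92).

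The difference of the medians depended on which peaks were compared. Outside the assigned gene it was −0.306 (−0.837 to 0.275), with medians of 3.47 over 74 upstream peaks and 3.78 over 36 downstream peaks. For protein-coding genes alone it was 0.681, with medians of 3.79 upstream and 3.11 downstream. Both subsets were chosen after the data were seen. Among downstream peaks, those past the end of their gene had a median of 3.78 and those inside it one of 3.07, a difference of 0.705 (0.177 to 1.12). By −log10 q the same difference was 1.66 (−0.889 to 5.39), an interval that includes 0. Peaks of microRNA and small nucleolar RNA genes were among those past the end. Over all their 1 to 3 kb peaks these gene types had medians of 3.81 (13 peaks) and 4.25 (6 peaks). Whether the position relative to the gene or the type of gene sets the strength was not tested.

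**Figure D2:**
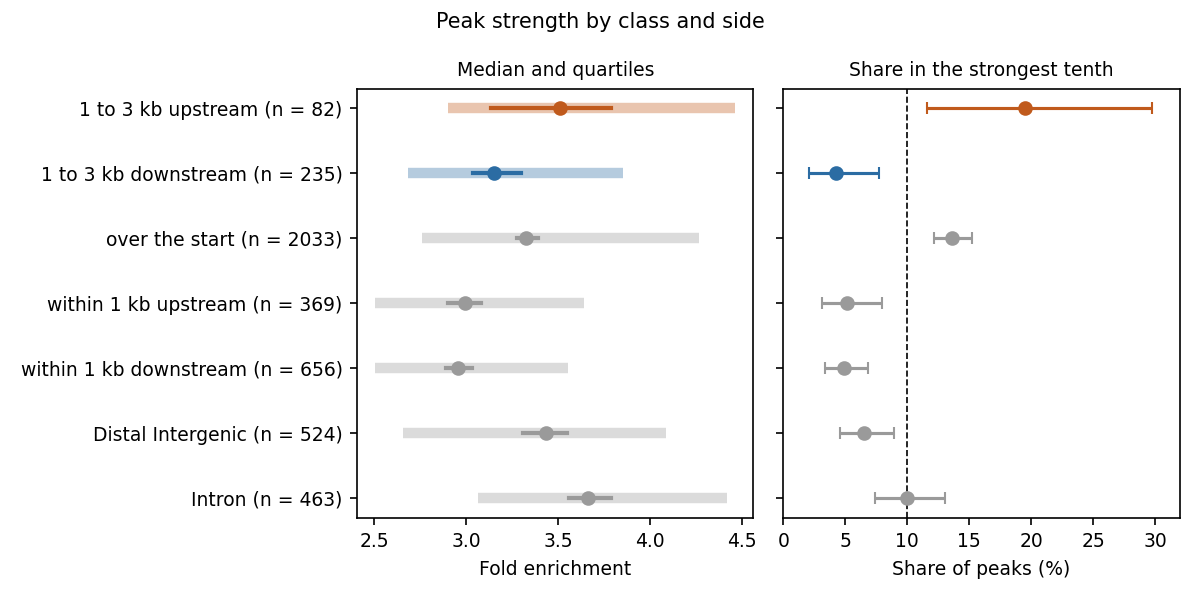
Left, median fold enrichment of each class of peaks (dot) with its 95% interval (thin line) and quartiles (thick bar); right, share of each class among the 455 strongest with its exact 95% interval, the dashed line marking the 10.0% of the whole list. Upstream peaks at 1 to 3 kb stand at 19.5% and downstream peaks at 4.26%.

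Of the 20 strongest peaks 13 lay upstream and 7 downstream. Among the upstream ones, the peaks of Dhx40 and Fbxl18 and the weaker peak of Slc51a had summits beyond 3 kb. The strongest, at 9.33, lay 2090 bp upstream of a start of Tsc22d3 (chrX:140544758-140545136), which encodes GILZ, a leucine zipper protein induced by glucocorticoids. That start lies inside the gene and was itself overlapped by a peak of 9.40. The Tsc22d3 peaks 1206 and 2076 bp downstream had 2.99 and 3.55, so the upstream peak stood level with the start peak and the downstream ones far under it. Rcc2, a regulator of chromosome condensation, had 8.82 at 1543 bp upstream (chr4:140699548-140699930), against 3.35 for its peak 53 bp downstream of the start. The −log10 q values of these Rcc2 peaks were 72.5 for the upstream one and 4.78 for the one near the start.

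Mir21a, whose microRNA is abundant in activated T cells, had 7 peaks in all, 3 of them at 1 to 3 kb. The peak 2129 bp upstream had 7.0 (chr11:86586287-86587259), and the peaks downstream had 3.76 at 1084 bp and 8.34 at 2370 bp (chr11:86581054-86581788). The peak over the start had 3.47, so the enrichment was higher at a distance on both sides than over the microRNA itself. The upstream peak also overlapped Vmp1, the neighbouring gene. The other microRNA genes shown were Mir26b with 5.64 at 2853 bp downstream, over Ctdsp1, Mir6935 with 4.80 and 4.07 downstream, the stronger over Actg1, and Mir17 with 3.58 at 1452 bp upstream. MicroRNA genes made up 4.10% (2.20 to 6.91) of the 1 to 3 kb peaks and 0.654% (0.400 to 1.01) of the peaks within 1 kb. The former were 13 peaks of 10 genes, 3 of them of Mir21a. Shares among Distal Intergenic and Intron peaks were not counted here.

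The long noncoding RNA gene Gm26812 had 8.18 at 1423 bp upstream. Its closer peak had 43.8, the highest fold enrichment of the whole list, at 392 bp upstream of another start of the gene. The gap between these peaks was 2113 bp. Dhx40, which encodes a putative RNA helicase, had 7.93 at 2543 bp upstream, with the summit at 4050 bp, and no closer peak. Atf5 had 7.85 at 2355 bp upstream (chr7:44819013-44819205). Atf5 encodes a basic leucine zipper factor related to ATF4, and this was its only listed peak, overlapping Nup62 and Il4i1b. Gm46827 had 7.62 at 1038 bp upstream, overlapping Nfkb1, the gene of an NF-kB subunit. Slc51a, a subunit of an organic solute transporter, had 7.58 at 2236 bp and 6.0 at 2922 bp upstream, its only listed peaks. The summit of the Slc51a peak at 2922 bp lay at 3138 bp. Scd4, a stearoyl-CoA desaturase, had 6.95 upstream as its only peak. Gstp3, a glutathione S-transferase, had 6.90 upstream beside 7.29 over the start.

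The downstream peaks among the 20 strongest, besides that of Mir21a, ran from 6.37 to 5.91. They belonged to Gm35222, AW112010, Gm5922, the small nucleolar RNA gene LOC115488691, Leprotl1 and Gm39556. AW112010 had 6.14 at 2150 bp, against 2.89 near its start. The other upstream ones were Fbxl18, an F-box protein gene, with 6.01, and Celf5, an RNA-binding protein gene, with 5.88. The Fbxl18 peak was 4068 bp wide, with its summit 5580 bp upstream, and overlapped Actb, the beta-actin gene.

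**Figure D3:**
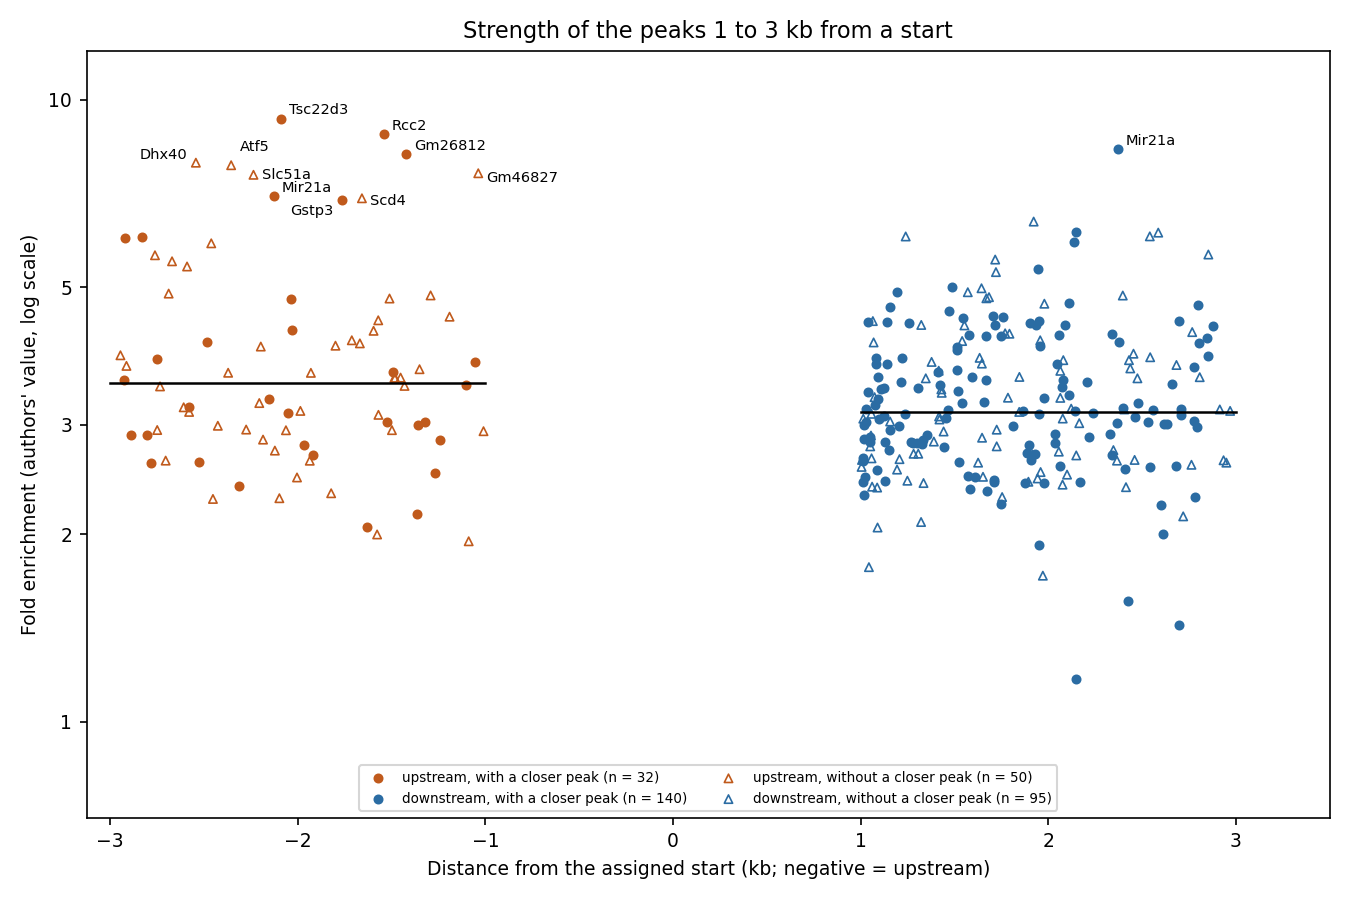
Fold enrichment of the 317 peaks against their distance from the start (x axis in kb, negative upstream; y axis logarithmic), with filled circles for peaks that have a closer peak of the same gene and open triangles for those without; black lines are the medians, 3.51 upstream and 3.15 downstream. Of the 20 strongest peaks 13 are upstream.

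A closer peak of the same gene was present for 172 of the 317 peaks, or 54.3% (48.6 to 59.8), and for 149 of 282 genes, or 52.8% (46.8 to 58.8). Closer means a smaller deposited distance on the same chromosome, and the distances can be from different starts of the gene. A closer peak of the same start was present for 149 of 317 peaks. In 11 of 172 cases the nearest closer peak lay more than 3 kb from the peak itself. By side, a closer peak of the gene was present for 32 of 82 upstream peaks, or 39.0% (28.4 to 50.4). For downstream peaks it was 140 of 235, or 59.6% (53.0 to 65.9). These intervals do not overlap. A closer peak overlapped the start for 24.4% (15.6 to 35.1) of upstream and 40.9% (34.5 to 47.4) of downstream peaks. Protein-coding genes had a closer peak for 63.6% (56.8 to 70.0) of their peaks and long noncoding RNA genes for 30.2% (18.3 to 44.3). With peaks of any gene counted, 56.5% had one nearer to their start.

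The strength of peaks with and without a closer peak was compared next. The median fold enrichment was 3.16 with a closer peak and 3.20 without, a difference of −0.0387 (−0.430 to 0.193). The difference was −0.320 (−0.902 to 0.611) upstream and 0.0327 (−0.295 to 0.362) downstream. All 3 intervals include 0, which does not show that the groups are alike. A −log10 q under 3 was found in 29.1% of peaks with a closer peak and in 40% of those without.

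The 1 to 3 kb peak was mostly the weaker of the pair. Its ratio to the strongest closer peak had a median of 0.823 (quartiles 0.621 and 1.08), 0.984 upstream and 0.801 downstream. It exceeded every closer peak in 55 of 172 cases, or 32% (25.1 to 39.5). The share was 46.9% (29.1 to 65.3) upstream and 28.6% (21.3 to 36.8) downstream, with intervals that overlap. Its −log10 q exceeded that of the strongest closer peak in 42 of 172 cases, 12 of 32 upstream and 30 of 140 downstream. The median gap to the nearest closer peak was 1023 bp, 1512 bp upstream and 924 bp downstream. In 46 of 172 cases it was within 500 bp, and whether such neighbours are 1 region split by the peak caller was not tested.

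The 10 genes with the largest ratio were Rcc2 at 2.63, Eif5 at 2.16, AW112010 at 2.12, Gm39556 at 2.12, Gm33682 at 1.98, Gfpt1 at 1.94, Lrrc8d at 1.91, Mir21a at 1.86, Ighj4 at 1.70 and Lsm8 at 1.67. Eif5, a translation initiation factor, had 4.78 at 2036 bp upstream, against 2.21 at 98 bp upstream. Gfpt1, the first enzyme of the hexosamine pathway, had 3.66 at 1493 bp upstream, against 1.89 at 191 bp upstream. Lsm8, a component of the complex that binds U6 RNA, had 3.20 upstream, against 1.92 over the start. Over the 10 genes the strongest closer peak ran from 1.89 to 3.76.

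**Figure D4:**
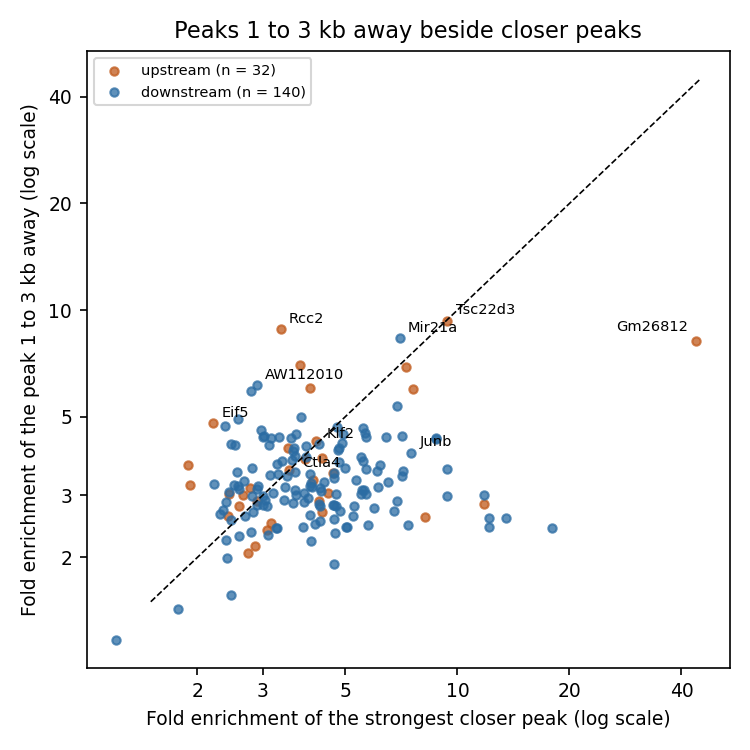
Fold enrichment of each of the 172 peaks that have a closer peak of the same gene, against that of the strongest closer peak (both axes logarithmic), upstream and downstream; the dashed line marks equal values. The 1 to 3 kb peak is the stronger in 55 of 172 cases.

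Genes with a 1 to 3 kb peak had stronger start peaks. Of 1721 protein-coding genes with a peak over the start, 90 also had a 1 to 3 kb peak, or 5.23% (4.23 to 6.39). Their start peaks had a median fold enrichment of 4.09 (3.57 to 4.66), against 3.31 (3.25 to 3.37) in the 1631 without one, a difference of 0.781 (0.260 to 1.35). The median −log10 q was 14.6, against 7.63, and the median width 420.5 bp, against 291 bp. By side, the start peaks had a median of 3.10 (2.68 to 7.29) in 14 genes with an upstream peak and 4.27 (3.69 to 4.68) in 79 genes with a downstream peak. Width and strength moved together with the presence of a downstream peak, and their part in it was not tested.

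In 14 lists with 414 distinct genes, 21 genes had 24 of the peaks, 2 of them upstream and 22 downstream. Of the 207 list genes with any listed peak these 21 were 10.1% (6.39 to 15.1), against 7.76% (6.91 to 8.68) of all 3634 genes in the peak list. A closer peak was present for 21 of the 24. Over all 317 peaks, too, most were downstream, at 74.1%, and most had a closer peak, at 54.3%. Among peaks of protein-coding genes 22.6% were upstream and 63.6% had a closer peak. Whether the list genes differ from these was not tested.

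Of 40 canonical ATF4 targets 4 had such a peak, while 29 had a peak within 1 kb and 32 had any listed peak. Besides Atf5, the targets with such a peak were Slc3a2 with 2.76, Gdf15 with 2.72 and Ddit4 with 2.71. All 3 were downstream and under the median of the 317. The Ddit4 peak had a −log10 q of 1.16 and was 1 of 7 of the 317 peaks with a q over 0.05. These 7 were 2.21%, against 2.89% of the other peaks. Slc3a2, the heavy chain of the CD98 amino acid transporter, had 5.98 at 750 bp downstream, and Ddit4, an inhibitor of mTORC1, had 6.77 at 956 bp upstream. Gdf15 encodes a secreted stress cytokine. Any listed peak was present at 12 of 20 amino acid transporters and 8 of 30 nutrient sensing genes. Slc3a2 was the 1 transporter with a 1 to 3 kb peak, and Ddit4 the 1 nutrient sensing gene. There were 0 among 27 aminoacyl-tRNA synthetases, 35 ER stress genes, 26 autophagy genes, 18 BCL2 family genes and 53 cytosolic ribosomal protein genes. Of these only 13, 17, 7, 9 and 32 had any listed peak, against which the share over all genes in the peak list was 7.76%. Of the synthetases 26 and of the ER stress genes 33 were in the gene table. Of 48 basic leucine zipper factors, 28 had any listed peak and 3 had one at 1 to 3 kb. These 3 were Atf5, Junb with 3.95 and Jun with 3.45. Junb and Jun encode AP-1 subunits and had start peaks of 7.51 and 4.66.

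T cell receptor signalling had the most genes, 7 of 36, or 7 of the 21 with any listed peak. Over all genes in the peak list the share was 7.76%. Of the 7 genes, those past the strongest 4 were named after their values were seen. Cd69, an early activation marker that retains lymphocytes in tissue, had 4.65 at 1154 bp downstream beside a start peak of 5.56. Lcp2, an adaptor, had 3.12 and Prkcq, protein kinase C theta, 2.94. Cd247, the zeta chain of the receptor, had 2.93 and no closer peak. Nr4a3, an orphan nuclear receptor, had 2.79 at 1968 bp upstream, and Cd28, the costimulatory receptor, 2.56 at 2540 bp downstream beside a start peak of 4.67.

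Of 33 core genes of regulatory T cells 2 had such a peak. Ctla4, an inhibitory receptor, had 4.01 at 1512 bp and 3.18 at 2707 bp downstream, with 3.57 over the start. The Ctla4 peak at 2707 bp had its summit at 3646 bp. Ikzf2, which encodes Helios, had 2.91 at 2037 bp downstream. Of 36 effector and tissue genes 3 had one, all downstream. Klf2, a factor of lymphocyte quiescence and recirculation, had 4.18 and 2.84, Gata3, a T helper lineage factor, had 4.02, and Id2, an inhibitor of helix-loop-helix factors, had 3.87 and 3.09. Their start peaks had 4.24, 4.78 and 3.66. Of 20 migration genes 2 had one, Klf2 and S1pr1, the receptor for egress from lymphoid organs, with 3.32. Of 26 TNF and NF-kB genes 2 had one, Birc3, an inhibitor of apoptosis, with 4.35, and Tnfsf8, the CD30 ligand, with 3.39. Any listed peak was present at 19 core, 15 effector and tissue, 9 migration and 13 TNF and NF-kB genes. Over all genes in the peak list, 7.76% had a 1 to 3 kb peak. By fold enrichment, the strongest 1 to 3 kb peak exceeded the one over the start at Ctla4, Id2 and Birc3. At Klf2, Gata3, Cd69 and Cd28 it did not. By −log10 q the peak over the start was the higher at all of these genes. The values were 19.0 against 10.3 at Ctla4, 20.7 against 5.01 at Id2 and 9.13 against 8.12 at Birc3.

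**Figure D5:**
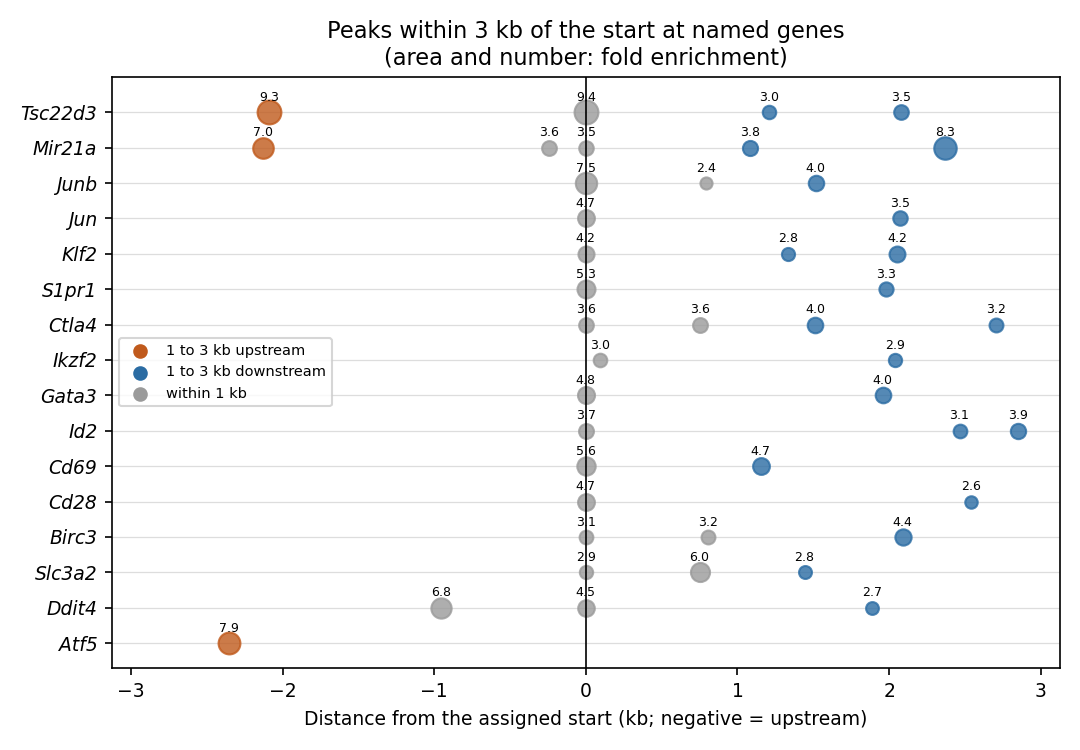
Listed peaks within 3 kb of the start at 16 named genes (x axis in kb, negative upstream), with the area of each point and the number beside it giving fold enrichment. Peaks at 1 to 3 kb lie upstream at Tsc22d3, Mir21a and Atf5, at 9.33, 7.0 and 7.85, and only downstream at the other genes drawn.

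Some genes had several peaks in a row, and the following were chosen after their values were seen. Klf6, a Kruppel-like factor, had 3.55 and 3.01 downstream, with 5.69 at 161 bp upstream. Pim1, a kinase, had 3.84 and 4.14 downstream, with 3.92 over the start. Flicr, a long noncoding RNA gene next to Foxp3, had 3.30 at 2155 bp upstream, with 4.09 at 614 bp upstream. Of the 282 genes 252 had 1 peak at 1 to 3 kb, 26 had 2, and 4 had more: Tsc22d3, Mir21a and Gm8369 with 3 each and Erdr1 with 4, the last between 2.24 and 2.87. Erdr1 had 14 listed peaks in all and was treated as possibly repeated sequence.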

How the data were processed

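ATF4 ChIP-seq was done in 2 samples, with 2 inputs. The submitters' processing notes name MACS2, Bowtie2, deepTools and Trim Galore, with build mm10. Their versions, any pooling of replicates and the role of the inputs were not given in the sources used here. Fold enrichment, −log10 q, score, class, gene and distance are the authors' deposited values, in the layouts of MACS2 and ChIPseeker. The score equalled 10 times −log10 q, rounded down, in 4543 of 4544 peaks. Peak starts were raised by 1, after which the deposited distance was recovered in 4544 of 4544.

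Members and lists were chosen with earlier results of these data known. A peak lay inside its own gene where it overlapped the RefSeq span of the gene or the deposited span of the assigned transcript. A closer peak has the same gene and chromosome and a smaller distance. Shares have exact Clopper-Pearson intervals, medians order-statistic intervals, and differences of medians the 2 combined in quadrature. No p-value was computed, since peaks are not replicates. The calculations were tested on simulated data. Gene names, starts and sequences came from RefSeq GRCm38.p6 tables, in which all 3634 symbols were found; 175 of 282 genes were in the promoter table. Named genes were those of the 20 strongest peaks, up to 4 per list, the 10 with the largest ratio to a closer peak, and 3 on each side of each bound; further T cell receptor genes and those stated as such were named after their values were seen. A few genes that are counted are not reported here by name. Alternatives covered the measure, significance thresholds of 3 and 5, possibly repeated sequence, 1 peak per gene, distance class, gene type, position and the definition of a closer peak. Python 3.11.15 was used with numpy 2.4.6, pandas 2.3.3, scipy 1.17.1 and matplotlib 3.10.9.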

Additional observations from a re-analysis of the deposited data

How the results depend on the processing

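The upstream minus downstream difference of medians, 0.360, was 1.45 by −log10 q, 0.681 for protein-coding genes alone and −0.306 outside the assigned gene, where the sign turned; the cause was not tested. Under the other alternatives it lay between 0.285 and 0.496. The difference with minus without a closer peak, −0.0387, was 0.297 by −log10 q and between −0.189 and −0.0124 otherwise. The share of genes with a closer peak, 52.8%, was 34.0% where that peak had to overlap the start and 46.5% where it had to share the transcript start, both narrower definitions, and 54.1% and 55.3% otherwise. The upstream share lay between 22.6% and 26.8%, and the share among the strongest peaks of the list was 8.20% by fold enrichment and 5.68% (3.40 to 8.83) by −log10 q, below the 10.0% of the list. Protein-coding genes, position outside the gene, the shared transcript start and closer peaks of any gene were chosen after the data were seen. No paired analysis was possible because the list has no values per sample, and for the same reason no replicate could be left out. The depth is unknown, so what it limits cannot be given.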
